A study of Mus musculus with 5 samples.

Results

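All 37 genes of the mouse mitochondrial genome were taken from the gene counts of Charme WT and Charme KO hearts, out of 49671 genes in the table. They were chosen by their symbols, which start with mt-, and not by any measured value, and they comprise 13 protein-coding genes, 2 rRNA genes and 22 tRNA genes. The study asked how loss of Charme, a long noncoding RNA of cardiac and skeletal muscle, changes RNA levels in the neonatal heart. Littermates of strain C57BL6/J gave their hearts at postnatal day 2, and hearts of 1 genotype were combined before RNA was extracted. The 3 Charme WT pools held 9 hearts each and carried the unmodified locus. The 2 Charme KO pools held 3 hearts each and carried a PolyA signal that had been put into the Charme locus by genome editing. Heart number per pool and genotype therefore cannot be told apart. The libraries are named WT pools 1 to 3 and KO pools 1 and 2, and KO pool 1 stood apart from the others in its mitochondrial counts. PolyA RNA was sequenced with a stranded kit, and the fragments assigned to genes numbered from 16721055 to 21646378 per pool. No molecular identifiers were used, so intervals cover counting error only.

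The mitochondrial genome is a small circle that is copied and transcribed inside the organelle. Both strands are read as long precursors, and many of the tRNAs, which lie between the mRNAs and rRNAs, are cut out to release them. The mRNAs encode core subunits of respiratory complexes I, III and IV and of ATP synthase (complex V), while every other subunit of these complexes comes from nuclear genes. Heart muscle is rich in mitochondria, and most mitochondrial mRNAs carry short A tails, through which they enter PolyA libraries.

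Before the members, the libraries were set against their labels. The counts of Charme were 810, 183 and 276 in WT pools 1 to 3 and 57 and 79 in KO pools 1 and 2. Its log2 fold change was -2.49 (SE 0.549, adjusted p = 0.0763, edgeR quasi-likelihood test). The 10 cardiomyocyte markers took 6.60% to 7.63% of the counts outside the mitochondrial genome in the WT pools, and 7.18% and 6.77% in KO pools 1 and 2. Within this sum the markers moved both ways. Their log2 fold changes, 6 positive and 4 negative, ran from -0.65 for Myh6 to 0.68 for Myh7. The KO pools also held RNA that the WT pools had little of. The 3 salivary gland markers were at 0 in every WT pool and took 0.0345% and 2.81% of these counts in KO pools 1 and 2. The 4 brown adipose markers took 0.00346% to 0.00465% in WT pools, and 0.00719% and 0.115% in KO pools 1 and 2. The test called 3 of 6 erythroid, 2 of 5 skeletal muscle and 1 of 5 macrophage markers as higher in KO. Over all genes it called 1.53% as higher. None of the 10 cardiomyocyte, 6 fibroblast and 5 endothelial markers was called. It also called 3 of 3 salivary gland and 3 of 4 brown adipose markers as higher. Those called reached 10 counts in at most 1 WT pool. They passed the filter of 10 counts in 2 pools only with the KO pools, so their calls are not set against the share over all genes. The part of these other cells in the mitochondrial values was not tested, and in bulk RNA fewer cells of a type and less RNA per cell cannot be told apart.

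Most protein-coding genes have hardly a base between them and the next gene. In the reference transcripts (GENCODE M21, GRCm38), 10 of the 13 mRNA genes ended in a complete stop codon. The genes for mt-Co3, mt-Nd4 and mt-Cytb ended in a single T, whose stop codon is completed by the A tail. The last 30 bases of these 3 are shown with those of mt-Co1, the most counted gene, because the tail that finishes the message is also the feature that the libraries selected. Capitals mark the stop codon, or the part of it that the genome holds.
mt-Co3: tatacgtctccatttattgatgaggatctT
mt-Nd4: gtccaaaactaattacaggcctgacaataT
mt-Cytb: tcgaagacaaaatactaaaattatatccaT
mt-Co1: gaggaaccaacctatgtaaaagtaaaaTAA

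Mitochondrial genes took 11.1%, 10.8% and 10.8% of all counts in WT pools 1 to 3. They took 21.1% in KO pool 1 and 9.68% in KO pool 2. The KO pools thus lay on either side of the WT pools, and pool 1 stood apart from the other 4. Its 95% Wilson interval ran from 21.05% to 21.09%, so counting error was small beside the difference between the pools. The exact two-sided permutation test of the means gave p = 0.4, and the smallest value that 3 against 2 pools allow is 0.1. The 4 shares tested, of all members and of each class, had p-values of 0.3 to 0.6 in that exact test and 0.533 to 0.6 after Benjamini-Hochberg adjustment.

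Protein-coding genes made up almost all of this. Their share of all counts was 10.8%, 10.5% and 10.6% in WT pools 1 to 3, 19.8% in KO pool 1 and 9.54% in KO pool 2. The rRNA genes, whose products form the organelle's ribosome, took 0.372%, 0.225% and 0.232% in WT pools and 1.24% and 0.135% in KO pools 1 and 2. Within the mitochondrial counts, rRNA made up 2.09% to 3.33% in WT pools, 5.87% in KO pool 1 and 1.40% in KO pool 2. Thus KO pool 1 had the highest rRNA share and KO pool 2 the lowest. The tRNA genes took 0.00457%, 0.00246% and 0.00190% in WT pools and 0.0112% and 0.00268% in KO pools 1 and 2.

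**Figure D1:**
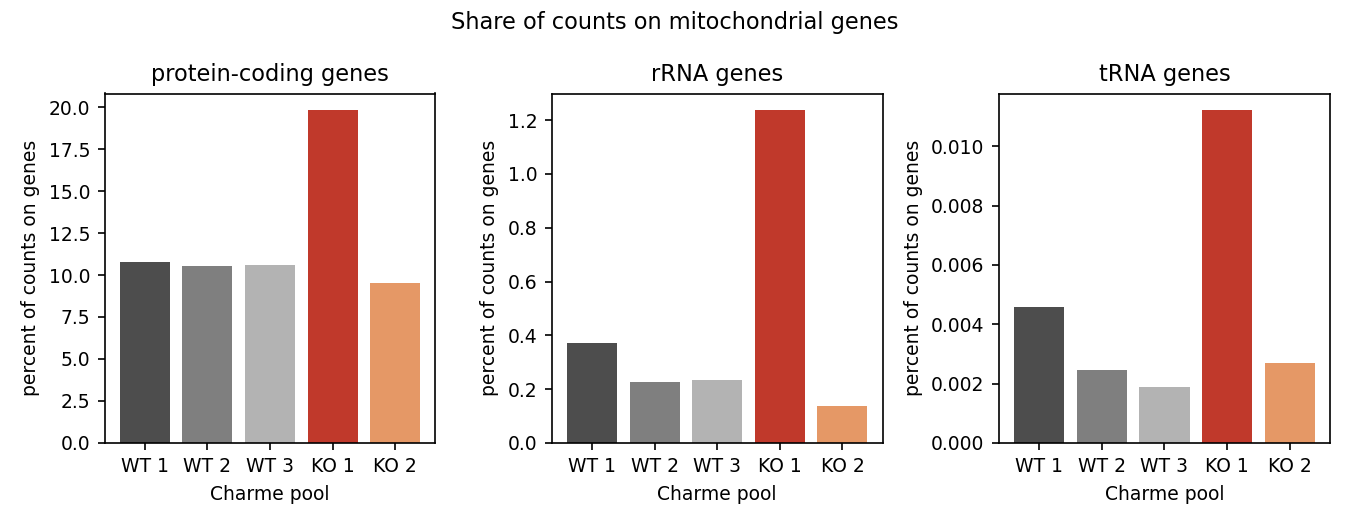
Percent of counts on genes (y axis, from 0, with its own range in each panel) that fell on mitochondrial protein-coding, rRNA and tRNA genes in each of the 5 pools, 1 bar per pool. KO pool 1 has the tallest bar in each panel, at 19.8%, 1.24% and 0.0112%, while KO pool 2 lies below every WT pool for protein-coding and rRNA genes.

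A filter of at least 10 counts in at least 2 pools kept 19 of the 37 members, which were all 13 protein-coding genes, both rRNA genes and 4 tRNA genes. Of the other 18 tRNA genes, 10 had no count in any pool and 8 had between 1 and 25 counts over all pools. None of the 19 was called in the quasi-likelihood test, which called 2.05% of the 14880 genes tested with the adjusted p below 0.1 and the mean of either genotype at 1 FPKM or more. By direction it called 1.53% as higher in KO and 0.524% as lower. Adjusted p-values of the 19 ran from 0.215 to 0.603. At an unadjusted p under 0.05 there were 7 of the 19 members (36.8%), against 18.6% of all genes tested. The log2 fold change was positive for 14 members and negative for 5, with a median of 0.59, against 0.02 over all genes tested.

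Other tests called some members. The likelihood ratio test called mt-Nd2 alone, with 6.27% of all genes called, and DESeq2 called mt-Nd1 and mt-Nd2, with 8.35% of all genes called. The outcome turned on KO pool 1. Without KO pool 2, so that pool 1 stood alone for its genotype and was assumed to vary like the WT pools, 12 of the 19 members were called, all of them higher, where 31.7% of all genes were called. Without KO pool 1, only mt-Nd3 was called, as lower, where 4.33% of all genes were called, and 10 members that had been higher turned lower.

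Of the 19 members tested, only mt-Nd2 had both KO pools above every WT pool, and none had both below. Over all genes tested, 17.8% had both KO pools above and 18.2% had both below. Nd2 encodes a membrane subunit of complex I, and the gene lies at chrM:3914-4951 on the plus strand. It stood at 6914, 7102 and 5976 FPKM in the WT pools (6664 ± 603, SD, n = 3) and at 23615 and 7199 FPKM in KO pools 1 and 2. FPKM are counts per kilobase of gene, scaled to the size of the library with TMM factors. KO pool 2 exceeded the highest WT pool by less than the spread of the WT pools. The log2 fold change was 1.21 (SE 0.462), with an adjusted p of 0.218 in edgeR. It was 0.11 without KO pool 1 and 1.82 without KO pool 2.

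The other complex I genes fell into 3 levels. The mRNA of mt-Nd1 (chrM:2751-3707) stood at 19693, 24391 and 17079 FPKM in WT pools and at 54661 and 20378 FPKM in KO pools 1 and 2. KO pool 2 lay inside the WT range and KO pool 1 far above it, for a log2 fold change of 0.88 (SE 0.499, adjusted p = 0.366, edgeR), which was 0.0024 without KO pool 1. The mRNA of mt-Nd5 (chrM:11742-13565) stood at 5540, 4417 and 5686 FPKM in WT pools and at 11230 and 4332 FPKM in KO pools 1 and 2. That of mt-Nd4 (chrM:10167-11544) stood at 7060, 5888 and 6342 FPKM in WT pools and at 11374 and 6116 FPKM in KO pools 1 and 2. In both, KO pool 1 alone left the WT range by a wide margin, and the log2 fold changes were 0.58 for mt-Nd5 and 0.44 for mt-Nd4, with adjusted p-values of 0.482 and 0.524 in edgeR.

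The genes mt-Nd3 and mt-Nd4l, also of complex I, were far lower, with a mean of 66.5 ± 46.6 FPKM and 19.96 ± 11.6 FPKM in WT (SD, n = 3). Both belong to a group with nuclear copies that is described further on. The remaining complex I gene, mt-Nd6 (chrM:13552-14070), is the only mRNA gene on the minus strand, which is conventionally called a light-strand gene. It stood at 68.4, 61.7 and 57.8 FPKM in WT pools and at 151 and 61.4 FPKM in KO pools 1 and 2. Its log2 fold change was 0.76 (SE 0.313, adjusted p = 0.245, edgeR), and KO pool 2 lay within the WT range.

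Relative to the 12 mRNA genes of the other strand, mt-Nd6 varied little. It had 0.337, 0.313 and 0.308 counts per 1000 of theirs in WT pools, and 0.334 and 0.345 in KO pools 1 and 2. These 5 values lay close together although the mitochondrial share of KO pool 1 was far above the others. The log2 difference of the means was 0.09 (exact two-sided permutation p = 0.3 on the log2 ratio, 1.0 after adjustment over the 10 ratios computed).

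Cytochrome b, encoded by mt-Cytb (chrM:14145-15288), is the mitochondrial subunit of complex III. It stood at 17128, 13877 and 15289 FPKM in WT pools and at 30515 and 16047 FPKM in KO pools 1 and 2. KO pool 1 was the highest and KO pool 2 lay within the WT range. The log2 fold change was 0.59 (SE 0.425, adjusted p = 0.466, edgeR), and 0.059 without KO pool 1.

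Of complex IV, which passes electrons to oxygen, mt-Co1 (chrM:5328-6872) was the most abundant member. It stood at 25522, 25137 and 24627 FPKM in WT pools, a spread of 449 FPKM (SD, n = 3), and at 55901 and 19765 FPKM in KO pools 1 and 2. Here the KO pools lay on opposite sides of a narrow WT range. The log2 fold change was 0.59 (SE 0.555, adjusted p = 0.579, edgeR) and -0.34 without KO pool 1. The other complex IV genes, mt-Co2 and mt-Co3, had means of 253 ± 142 and 158 ± 94.1 FPKM in WT (SD, n = 3). Their log2 fold changes were -0.74 for mt-Co2 and -1.13 for mt-Co3, with adjusted p-values of 0.394 and 0.243 in edgeR.

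The ATP synthase genes mt-Atp8 and mt-Atp6 overlap by 43 bases, and both had low counts. The mRNA of mt-Atp8 (chrM:7766-7969) stood at 44.2, 52.7 and 39.9 FPKM in WT pools and at 108 and 28.3 FPKM in KO pools 1 and 2. That of mt-Atp6 (chrM:7927-8607) stood at 112, 257 and 65.6 FPKM in WT pools and at 86.2 and 47.8 FPKM in KO pools 1 and 2. So the overlapping pair ordered the pools differently, with KO pool 1 highest for mt-Atp8 and WT pool 2 highest for mt-Atp6. Neither was called, with adjusted p-values of 0.515 for mt-Atp8 and 0.263 for mt-Atp6 in edgeR. Fragments that cover both genes cannot be given to either.

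As a class, the rRNA genes had a larger share in KO pool 1 than in any other pool, and most of it was mt-Rnr2. The large rRNA, mt-Rnr2 (chrM:1094-2675), stood at 1669, 1137 and 874 FPKM in WT pools and at 8025 and 622 FPKM in KO pools 1 and 2. The small rRNA, mt-Rnr1 (chrM:70-1024), stood at 1040, 406 and 787 FPKM in WT pools and at 2045 and 343 FPKM in KO pools 1 and 2. For both, KO pool 1 was the highest of the 5 pools and KO pool 2 the lowest. The log2 fold changes were 1.82 for mt-Rnr2 (SE 0.740, adjusted p = 0.240) and 0.68 for mt-Rnr1 (SE 0.590, adjusted p = 0.552) in edgeR. Without KO pool 1 both turned negative, at -0.98 and -1.12.

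The 2 rRNAs did not keep a fixed ratio, even among WT pools. There were 2.66, 4.63 and 1.84 counts of mt-Rnr2 for each of mt-Rnr1 in WT pools, and 6.50 and 3.01 in KO pools 1 and 2. Against 1000 mitochondrial mRNA counts, mt-Rnr2 had 25.1, 17.6 and 14.2 in WT pools and 54.1 and 10.7 in KO pools 1 and 2, while mt-Rnr1 had between 3.54 and 9.43 in all 5 pools. The excess of rRNA over mRNA in KO pool 1 was thus in mt-Rnr2, and mt-Rnr1 of that pool lay within the range of the WT pools. PolyA selection takes up RNA by its A tail, so these counts are not the amount of rRNA in the tissue.

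**Figure D2:**
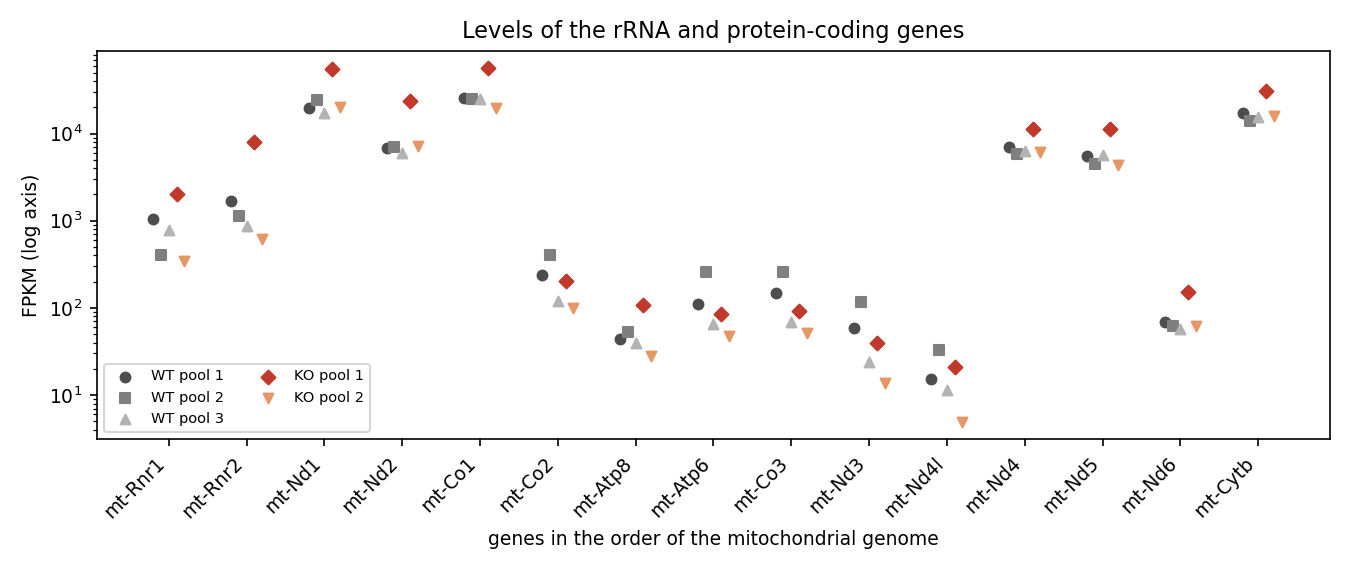
Level of the 2 rRNA and 13 protein-coding genes in each pool, in FPKM on a log axis, with genes in the order of the mitochondrial genome and 1 point per pool. The genes from mt-Co2 to mt-Nd4l lie at 4.97 to 403 FPKM, while their neighbours mt-Co1 and mt-Nd4 lie at 5888 FPKM or higher in every pool.

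Levels per kilobase in WT pools differed widely between the mRNA genes. The order of the means was mt-Co1 (25095 FPKM), mt-Nd1 (20388), mt-Cytb (15431), mt-Nd2 (6664), mt-Nd4 (6430), mt-Nd5 (5214), mt-Co2 (253), mt-Co3 (158), mt-Atp6 (145), mt-Nd3 (66.5), mt-Nd6 (62.7), mt-Atp8 (45.6) and mt-Nd4l (19.96). The WT values of mt-Nd1 overlapped those of mt-Cytb, and those of mt-Nd2 overlapped those of mt-Nd4. Neighbours from mt-Co2 down to mt-Nd6 also overlapped, whereas mt-Co1 and mt-Nd1, mt-Cytb and mt-Nd2, and mt-Nd4 and mt-Nd5 did not.

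Apart from mt-Nd6, the low genes sit side by side in the genome, from mt-Co2 to mt-Nd4l, and all of these but mt-Atp8 have an annotated second copy on chromosome 1. There the annotation holds 7 pseudogenes on the minus strand between positions 24611535 and 24616197 (chr1, GRCm38). Gm28661 (chr1:24614885-24615565) held the first 681 bases of mt-Co2 without a mismatch, which is 99.6% of the gene. Gm10925 (chr1:24613974-24614651) likewise held 678 bases of mt-Atp6, Gm28437 (chr1:24613189-24613971) 783 bases of mt-Co3, and Gm10222 (chr1:24612407-24612700) 294 bases of mt-Nd4l. Gm28439 (chr1:24611535-24612410) held the first 876 bases of mt-Nd4, or 63.6% of it, and Gm29216 (chr1:24615706-24616197) held the last 479 bases of mt-Co1, or 31.0%. mt-Atp8 lies in the same stretch of the mitochondrial genome, but no copy of its own is annotated on chromosome 1. Of its sequence, only the 43 bases shared with mt-Atp6 were compared there, as part of Gm10925. The aligned parts of mt-Co2 and mt-Atp6, on either side, lie as far apart on chromosome 1 as in the mitochondrial genome. The chromosome 1 sequence between them was not compared, and whether fragments of mt-Atp8 match it was not tested.

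Gm28438 (chr1:24612775-24613119) differed from mt-Nd3 at 1 of 345 bases, T3C counted from the first base of the gene. The first 23 bases of each are shown, since this is the only base in the aligned parts of the 7 pairs that tells a copy from its gene. The capital marks the difference.
mt-Nd3 (chrM:9459-9481): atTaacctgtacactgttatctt
Gm28438 (chr1:24613097-24613119): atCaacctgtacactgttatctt

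A fragment from such a stretch has an equal match at both places. For the 5 genes copied over nearly their whole length, 97.0% to 99.8% of all 150-base windows, the length of a read, were also found in an annotated nuclear transcript. Windows of mt-Co2 were found in a further transcript, Gm13341, as well as in Gm28661. Counts of Gm13341 are not part of the copy counts given below. The share was 59.2% for mt-Nd4 and 23.6% for mt-Co1, and 0% for mt-Nd1, mt-Nd2, mt-Nd5, mt-Nd6, mt-Cytb, mt-Atp8 and both rRNA genes. The search covered annotated transcripts only, so for mt-Atp8 the 0% leaves its place on chromosome 1 untested. The counter used by the authors keeps only fragments with a single best place, so the levels of the copied genes are uncertain. Per kilobase outside the shared stretch, the WT mean was 36372 ± 651 FPKM for mt-Co1 and 17651 ± 1622 FPKM for mt-Nd4 (SD, n = 3). This moves mt-Nd4 above mt-Cytb in the order of the means, though their WT values overlap (16163 to 19381 against 13877 to 17128 FPKM). This scale takes all counts of a gene as coming from outside the shared stretch, and it was chosen after seeing the data.

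The 5 copied genes together had 7805, 12409 and 3799 counts in WT pools and 4110 and 3300 in KO pools 1 and 2. Their chromosome 1 copies had 4462, 3920 and 5667 counts in WT pools and 5578 and 4608 in KO pools 1 and 2. The ratio of gene to copy was 1.75, 3.17 and 0.670 in WT pools and 0.737 and 0.716 in KO pools 1 and 2. The pools thus differed in how the counts of these stretches fell on gene and copy, and WT pool 3 resembled the KO pools. All 5 had a negative log2 fold change, from -0.68 for mt-Nd4l to -1.33 for mt-Nd3, and the 14 other members tested all had a positive one. None of the 7 copies was called. For Gm28438, the copy of mt-Nd3, both KO pools lay above every WT pool (log2 fold change 0.75, SE 0.252, adjusted p = 0.181, edgeR).

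**Figure D3:**
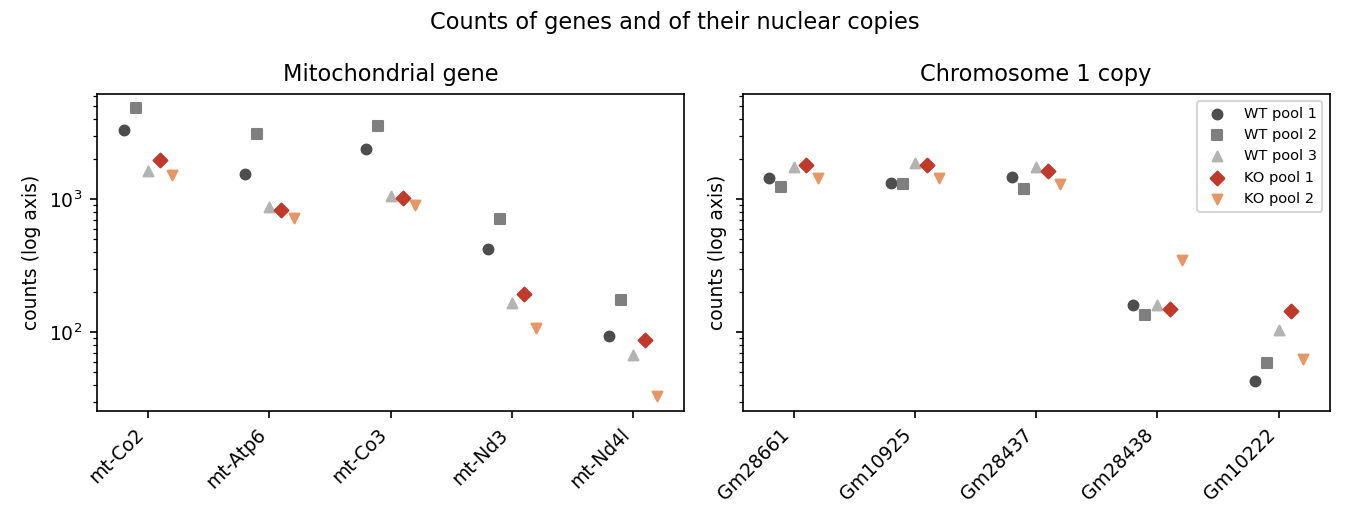
Counts (log axis) of the 5 mitochondrial genes copied over nearly their whole length, left, and of their copies on chromosome 1, right, with 1 point per pool. For mt-Co2, mt-Atp6, mt-Co3, mt-Nd3 and mt-Nd4l, WT pools 1 and 2 lie above the other 3 pools, an order that the copies do not share.

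Along the genome, the rise of KO pool 1 was uneven. On the log2 scale of FPKM over the mean of the WT pools, it stood at 1.46 for mt-Rnr1, 2.71 for mt-Rnr2, 1.42 for mt-Nd1 and 1.82 for mt-Nd2. It stood at 1.15 for mt-Co1, 0.82 for mt-Nd4, 1.11 for mt-Nd5, 1.27 for mt-Nd6 and 0.98 for mt-Cytb. Among these 9 rRNA and mRNA genes, the 4 nearest the start of the numbering were thus all above the 5 that follow. The other members did not keep this order, since mt-Ti, before mt-Nd2, and mt-Atp8 stood at 1.25, and mt-Tt and mt-Tp, at the far end, at 1.90 and 2.51. KO pool 2 lay between -0.34 and 0.11 for the mRNA genes among these 9, and at -1.12 and -0.98 for the rRNA genes.

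**Figure D4:**
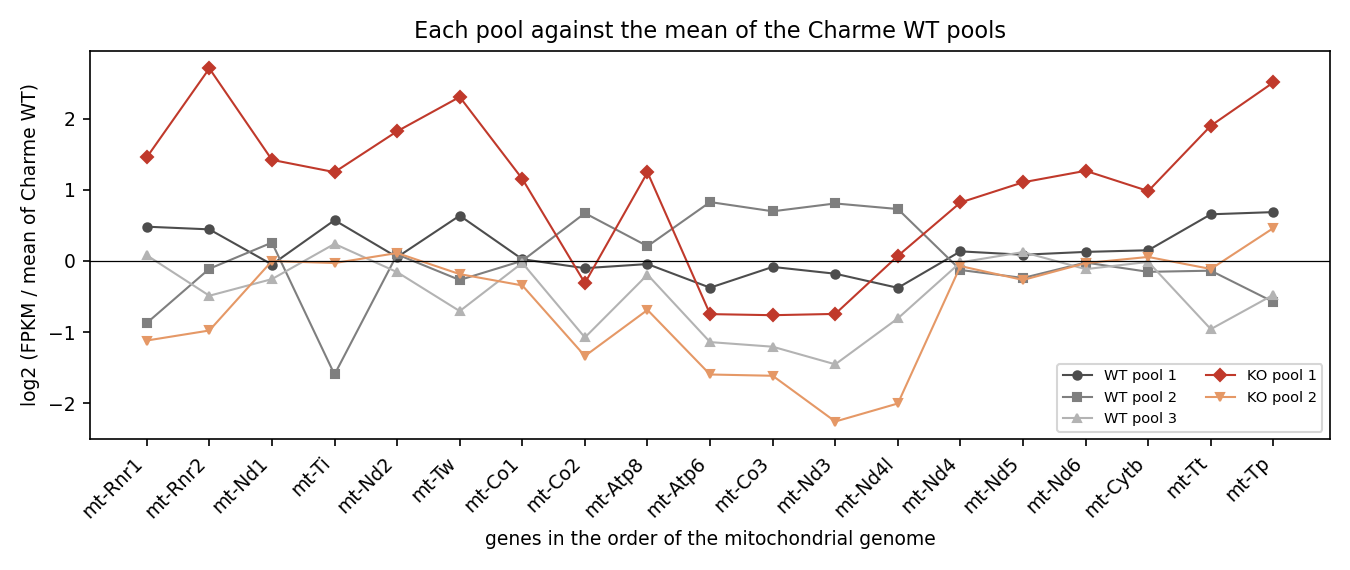
Log2 ratio of the FPKM in each pool to the mean of the WT pools for the 19 members tested, in genome order, with 1 line per pool and 0 marking the mean. KO pool 1 lies at 0.82 or higher at every gene outside the copied group (mt-Co2, mt-Atp6, mt-Co3, mt-Nd3 and mt-Nd4l), where the lines change order.

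The composition of the mitochondrial mRNA counts asks whether the genes moved unequally, whatever their total. The gene mt-Co1 made up 37.4%, 37.9% and 39.1% of these counts in WT pools and 36.8% and 33.1% in KO pools 1 and 2. That of mt-Nd2 was 6.81%, 7.20% and 6.37% in WT pools and 10.4% and 8.09% in KO pools 1 and 2. So mt-Nd2 was a larger part in both KO pools and mt-Co1 a smaller part in both, each with an exact two-sided permutation p of 0.1, the smallest possible, and 0.433 after adjustment over the 13 genes.

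The shares of mt-Nd1 (16.8% to 22.8% over all pools), mt-Cytb (14.9% to 19.9%), mt-Nd5 (7.87% to 10.6%), mt-Nd4 (6.68% to 9.24%), mt-Nd6 (0.0308% to 0.0345%) and mt-Atp8 (0.00625% to 0.0105%) overlapped between the genotypes. The 5 copied genes were lower in both KO pools than in every WT pool. Their exact two-sided permutation p-values were 0.2, or 0.3 for mt-Nd4l. Together they had 3.596, 6.86 and 1.97 counts per 1000 mRNA counts in WT pools and 1.24 and 1.60 in KO pools 1 and 2. In all, the genotypes did not overlap for 7 of 13 genes, 1 above and 6 below, of which 6 share windows with chromosome 1. These are shares of mitochondrial mRNA counts and not CPM. By CPM, 1 of the 13 genes lay above and 0 below, against 17.8% and 18.2% of all genes tested. When the composition was taken over the 5 mRNA genes outside the copied stretch, mt-Nd1, mt-Nd2, mt-Nd5, mt-Nd6 and mt-Cytb, only mt-Nd2 was separate, a setting chosen after seeing the data. The centred log ratio scale sets each gene against the geometric mean of all 13, the 5 copied genes included. On it mt-Co1 turned from lower to higher and overlapped, at 0.40, so its direction depends on the scale. On that scale mt-Co2 also overlapped, while mt-Nd1 and mt-Nd6 joined mt-Nd2 in having both KO pools above every WT pool, and mt-Atp6, mt-Co3, mt-Nd3 and mt-Nd4l were lower in both KO pools as before. The log2 differences of all 13 genes were higher on that scale than as shares. They rose from 0.18 to 0.74 for mt-Nd1, 0.09 to 0.62 for mt-Nd6, 0.0014 to 0.51 for mt-Cytb and -0.14 to 0.37 for mt-Nd4. As shares over the 5 genes outside the copied stretch, mt-Nd1 and mt-Nd6 had log2 differences of 0.07 and -0.03.

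**Figure D5:**
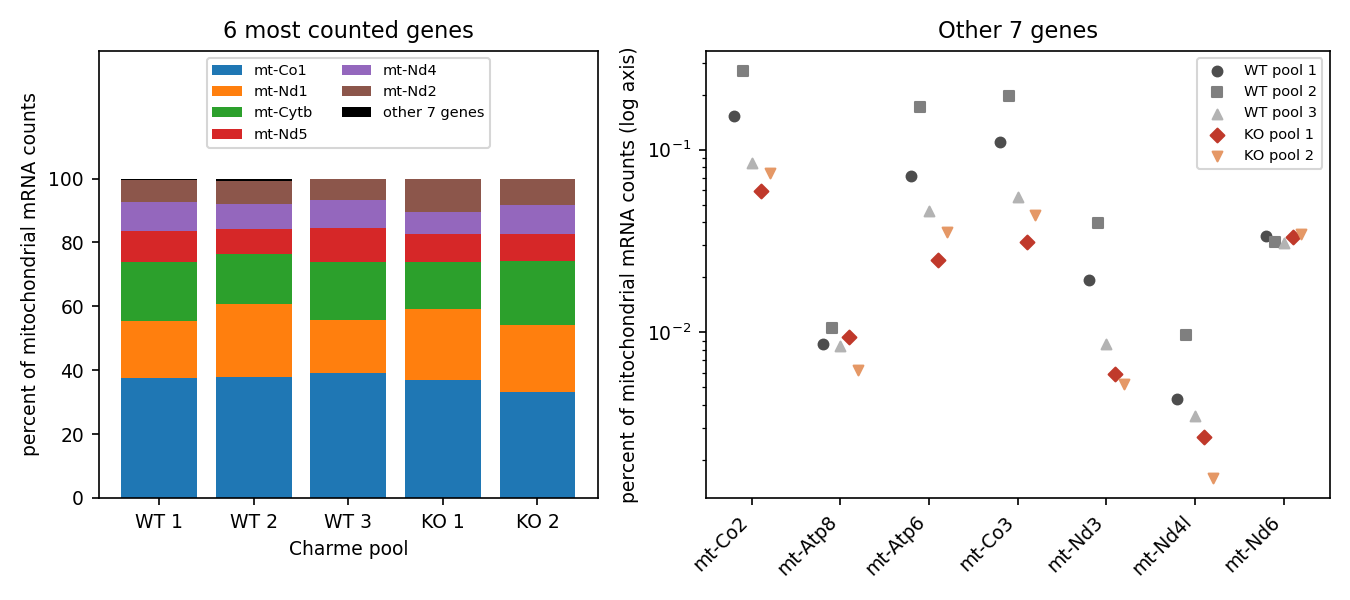
Percent of mitochondrial mRNA counts by gene in each pool, as stacked bars for the 6 most counted genes (left) and as points on a log axis for the other 7 (right). The share of mt-Nd2 is larger in both KO pools (10.4% and 8.09%) than in the WT pools (6.37% to 7.20%), and the 5 copied genes lie lower in the KO pools.

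Among tRNA genes, 4 passed the filter. The most counted was mt-Tw, the tryptophan tRNA gene, whose first 2 bases are the last 2 of mt-Nd2, followed by mt-Tt, the threonine tRNA gene, which starts at the base after mt-Cytb. Their sequences are shown because they carried nearly all counts of the class, and both are shorter than a read, so a 150-base read that covers one reaches into its surroundings.
mt-Tw (chrM:4950-5016): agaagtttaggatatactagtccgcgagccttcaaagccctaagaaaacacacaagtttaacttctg
mt-Tt (chrM:15289-15355): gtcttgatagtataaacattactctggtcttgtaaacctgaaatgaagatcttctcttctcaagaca

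mt-Tw had 677, 310 and 256 counts in WT pools and 1477 and 415 in KO pools 1 and 2. mt-Tt had 198, 98 and 62 counts in WT pools and 322 and 126 in KO pools 1 and 2. In both, KO pool 1 was the highest, and KO pool 2 lay between WT pools 1 and 2. Their log2 fold changes were 1.54 for mt-Tw (SE 0.580, adjusted p = 0.215) and 1.196 for mt-Tt (SE 0.556, adjusted p = 0.283) in edgeR. Relative to 1000 counts of the mRNA gene beside it, mt-Tw had 4.58, 2.38 and 2.09 in WT pools and 4.27 and 2.48 in KO pools 1 and 2, so the KO pools lay within the WT range. Relative to 1000 counts of mt-Cytb, mt-Tt had 0.490, 0.349 and 0.179 in WT pools and 0.653 and 0.307 in KO pools 1 and 2, so KO pool 1 lay above the WT range and KO pool 2 within it.

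The isoleucine tRNA gene mt-Ti, which overlaps the end of mt-Nd1 by 2 bases, had 21, 4 and 16 counts in WT pools and 23 and 15 in KO pools 1 and 2. The proline tRNA gene mt-Tp, on the minus strand, had 14, 5 and 6 counts in WT pools and 34 and 13 in KO pools 1 and 2. Their log2 fold changes were 0.63 and 1.67, with adjusted p-values of 0.603 for mt-Ti and 0.244 for mt-Tp in edgeR. The 10 tRNA genes with no count were mt-Tf, mt-Tv, mt-Tn, mt-Td, mt-Tk, mt-Tg, mt-Tr, mt-Th, mt-Ts2 and mt-Tl2. A count of 0 allows up to 3 counts in a pool, or 0.139 to 0.179 CPM by its depth. This bound holds for fragments given to the gene alone, since those that also cover a neighbour are given to neither. On their strand, mt-Tv and mt-Tg have 0 bases to the next gene on either side, whereas mt-Tw has 311 bases to mt-Co1. mt-Tl1 also has 0 bases on either side and yet had counts. Besides, mt-Td, mt-Tk, mt-Tg and mt-Tr lie between genes with copies on chromosome 1, where the sequence at their places was not compared. Fragments that match both places are left out by the counter, so the bound may not hold for these genes. The other 8 were mt-Tm with 25 counts over all pools, mt-Te with 12, mt-Tl1 with 7, mt-Ts1 with 3, mt-Tq, mt-Ta and mt-Tc with 2 each, and mt-Ty with 1. Mature tRNAs have no A tail and are short, so the libraries do not measure their level.

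The nuclear genes that build the same complexes, listed with earlier results of these data known, were not called. None of 36 complex I genes, 9 complex III genes, 16 complex IV genes or 17 complex V genes was called in the quasi-likelihood test, against 2.05% of all genes. Their median log2 fold changes were 0.32, 0.36, 0.31 and 0.29, against 0.02 over all genes, and 32, 7, 12 and 15 of them were positive. Of counts outside the mitochondrial genome, complex I genes took 1.11% to 1.30% in WT pools, 1.49% in KO pool 1 and 1.25% in KO pool 2. Complex IV genes took 0.881% to 1.03%, 1.23% and 1.02% in the same order. KO pool 1 was thus also the highest for these nuclear genes, by far less than for the mitochondrial ones.

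The most abundant nuclear subunits had the following log2 fold changes. In complex I they were 0.20 for Ndufb9, 0.18 for Ndufb11 and 0.25 for Ndufa2. In complex III they were 0.37 for Uqcr11, 0.45 for Uqcr10 and 0.36 for Uqcrh. In complex IV, Cox6b1 and the heart and muscle isoform Cox6a2 had 0.69 and 0.62, and Cox4i1 had -0.15. In complex V, Atp5b, Atp5a1 and Atp5g3 had -0.01, 0.03 and -0.16. None of these passed the test, and the lowest adjusted p among them was 0.183, for Cox6b1 (edgeR). Both KO pools lay above every WT pool for Uqcr11, Uqcr10, Cox6b1 and Cox6a2, and below every WT pool for Cox4i1. Of all genes listed for complexes I, III, IV and V, 9 of 36, 5 of 9, 5 of 16 and 2 of 17 lay above. In the same order, 0, 0, 1 and 0 lay below. By CPM, 17.8% of all genes tested lay above and 18.2% below.

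None of the nuclear genes that make and process mitochondrial RNA was called either. Over the 8 genes of mitochondrial transcription the median of the log2 fold changes was 0.02, with values of 0.05 for Tfam, which packs and starts transcription of the genome, 0.20 for the elongation factor Tefm and 0.25 for Mrpl12. The 18 genes of RNA processing, polyadenylation and decay had a median of 0.22, with 0.33 for Hsd17b10, a subunit of the RNase P that cuts tRNAs out of precursors, -0.04 for Grsf1 and -0.24 for Fastk. The 9 genes of rRNA modification and assembly had a median of 0.29, with 0.29 for Trmt2b, 0.08 for Mrm3 and 0.19 for Mrm2. The 15 genes of mitochondrial DNA replication and upkeep had a median of -0.18, with -0.18 for Endog, 0.14 for Mpv17 and -0.25 for the helicase Twnk. No adjusted p in these 4 lists was below 0.137 in edgeR.

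Other features of KO pool 1 were measured beside its mitochondrial share. Its TMM factor was 0.845, against 1.02 to 1.09 in the other 4 pools. Erythroid markers took 0.244% of its counts outside the mitochondrial genome, against 0.184% in KO pool 2 and 0.0998% to 0.144% in WT pools. Skeletal muscle markers took 0.00301% in KO pool 1, 0.00640% in KO pool 2 and 0.00111% to 0.00147% in WT pools. Fibroblast markers (0.481%) and macrophage markers (0.00993%) lay within the WT range in that pool, and endothelial markers (0.0725%) lay below it. The part of these features in the mitochondrial values was not tested.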

How the data were processed

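RNA-seq libraries of 5 heart pools were analysed. Groups came from the sample labels. The authors trimmed the reads, dropped those under 35 nucleotides, aligned the rest to GRCm38 with STAR and deposited raw counts of fragments per gene of Ensembl release 87, made with STAR's own counter in its reverse-strand setting. This counter leaves out fragments that align to more than 1 place. The FPKM table that was deposited beside the counts was left out, since it holds a filtered set of genes. Genes were matched to GENCODE M21 (49411 of 49671), which gave positions, lengths and sequences.

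Genes that reached 10 counts in 2 pools were fitted for genotype across all 5 pools with edgeR 4.0.16 (R 4.3.3, TMM, quasi-likelihood test, glmQLFit with legacy = FALSE), and p-values were adjusted by Benjamini-Hochberg over the 14880 genes. The study's methods name the likelihood ratio test, which was an alternative, as was DESeq2 1.42.0. Nothing says that the pools of a genotype were separate litters, so p-values measure the spread between these pools. Shares, composition and ratios were compared by exact two-sided permutation of the absolute difference of means (SciPy 1.17.1), over 10 assignments. Each 150-base window of a member was searched in the nuclear transcripts of GENCODE M21. The test was tried on simulated counts.

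The members, gene lists and tests were chosen with earlier results of these data known. All 37 members were to be named or counted, tRNA genes by name where they passed the filter, and of the nuclear lists the genes called and the 3 most abundant by mean FPKM over the 5 pools. Of the marker lists, summed levels and numbers called are given, with the range of log2 fold changes for cardiomyocyte markers. Alternatives were other tests, normalizations, filters, thresholds and denominators, the replicate number as a block, and each pool left out.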

Additional observations from a re-analysis of the deposited data

How the results depend on the processing

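Leaving out each pool in turn gave log2 differences of the mitochondrial share from -0.17 to 0.95 for all members, from -0.16 to 0.90 for protein-coding genes, from -1.03 to 2.16 for rRNA genes and from -0.15 to 1.91 for tRNA genes. The lowest value was that without KO pool 1 in each case. The number of genes called ranged from 0 (without WT pool 3, in edgeR, with 1315 genes at an unadjusted p under 0.05) to 4607 (without KO pool 2), and the number of members called from 0 to 12. The log2 fold change ranged from -1.12 to 1.45 for mt-Rnr1, from -0.98 to 2.70 for mt-Rnr2, from -0.064 to 1.20 for mt-Ti, from -0.19 to 2.30 for mt-Tw, from -0.34 to 1.15 for mt-Co1, from -0.68 to 1.24 for mt-Atp8, from -0.069 to 0.82 for mt-Nd4, from -0.26 to 1.10 for mt-Nd5, from -0.028 to 1.26 for mt-Nd6, from -0.12 to 1.89 for mt-Tt and from -1.98 to 0.082 for mt-Nd4l. Of the members called without KO pool 2, the lowest adjusted p was 0.000621, for mt-Rnr2 (edgeR).

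The likelihood ratio test called 933 genes and 1 member, DESeq2 called 1122 genes and 2 members, and an adjusted p under 0.05 left 111 genes. For mt-Nd2 the likelihood ratio test gave an adjusted p of 0.0652 and DESeq2 gave 0.022, with 0.0947 for mt-Nd1. The cause of these differences was not tested. The other normalizations and filters and the legacy test called 0 members, at 262 to 331 genes called. Over the 5 genes outside the copied stretch, only mt-Nd2 had genotypes that did not overlap. Among these 5 it was also the only such gene in the composition over all 13 genes. The ratio of mt-Nd6 to the other strand kept its direction in all settings tried, with a log2 difference of 0.06 to 0.13 when a pool was left out.

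With the replicate number as a block, 210 genes (1.41%) and 1 member were called, mt-Co3, at a log2 fold change of -1.50 and an adjusted p of 0.0829 (edgeR). Deviations from the group means correlated at 0.137 between the pools numbered 1 and at 0.0778 between those numbered 2. The deviations of 2 KO pools mirror each other, so these values cannot tell whether the numbers mark pairs. Nothing states that they do, and the numbers were treated as names and not as pairs. The 3 against 2 pools cannot give an exact p below 0.1, and a KO pool left alone was assumed to vary like the WT pools. Of the 22 tRNA genes, 18 had too few counts to be tested.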
